A study of Homo sapiens with 8 samples.

Results

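Pairs of competing acceptors were examined in HEK293 cells, a human embryonic kidney line, after treatment with the splicing modifier LMI070 or with its solvent. A pair consisted of 2 annotated splice junctions on the same chromosome and strand that left from the same 5′ splice site and ended at acceptors 4 to 100 nt apart. Each junction of a pair had to hold at least 20 uniquely mapped reads over the 8 libraries. The rule found 1910 such pairs among 16494 annotated acceptor pairs of every distance. The pairs were thus chosen by their read totals, and their depth is given as a description. The acceptor nearer to the donor is called proximal and the one farther downstream distal, and the distal share is the distal junction's percentage of the reads of both.

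The treated group was 4 libraries of HEK293 cells given 25 nM LMI070, replicates 13 to 16. The control group was 4 libraries of the same line treated with DMSO, replicates 9 to 12. No other agent and no genetic change is labelled in either group. The RNA was total RNA depleted of ribosomal RNA and made into stranded libraries. The labels do not say whether the libraries came from separate cultures, so the p-values measure the spread between these libraries, which may be technical.

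At the end of an intron the spliceosome recognises a branch point, a run of pyrimidines and an AG dinucleotide. U2AF2 binds the pyrimidine run and U2AF1 the AG, after SF1 has bound the branch point. Where several AGs lie close together the second step of splicing can use either, and the shorter or longer exon that results differs by the stretch between them. A stretch whose length is a multiple of 3 keeps the reading frame. LMI070, also called branaplam, is a small molecule known for acting at the other end of the intron, where U1 snRNP pairs with the 5′ splice site. It strengthens that pairing at some exons that end in GA.

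The stretch between both acceptors is exon when the proximal acceptor is used and intron when the distal one is used. The following sequences are from GENCODE 29 transcripts on GRCh38, 5′ to 3′ on the strand of the gene, and the capitals mark the last 3 bases, which hold the AG of the distal acceptor. The first 5 are among the pairs with the most reads of those whose distal share in DMSO lay between 20% and 80%. For stretches over 30 nt, the last 30 bases are printed.
SERBP1 18 nt: ttctttttcacattaCAG
SERBP1 45 nt: cattcagaaacaaatatcttataattaCAG
TOMM6 37 nt: gccacctgtcgtcttatcatctgattgCAG
BEX3 47 nt: aaaaatctcatcatggcaaatattcacCAG
MORF4L2 51 nt: ttcattgcagatacctgcctttctttcTAG
The others are shown because their shares are compared between the groups. SNRNP70 and TENT2 belong to gene lists, and ELMO2, ZNF700 and EPG5 were chosen after their values were seen.
SNRNP70 27 nt: gcccggcccctccccgcttccgcaCAG
TENT2 12 nt: tgtttttttCAG
ELMO2 29 nt: gcagccgtgtctgtgtttttgtctcgCAG
ZNF700 9 nt: atgtttCAG
EPG5 56 nt: cactaaacctcctctgtctgatcgtacCAG

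The printed bases of SERBP1 lie on the minus strand, at chr1:67424960-67424977 for the 18 nt stretch and at chr1:67424278-67424307 for the 45 nt one, both coding. TOMM6 lies at chr6:41789538-41789567 on the plus strand, in a 3′UTR. BEX3 at chrX:103377480-103377509 on the plus strand and MORF4L2 at chrX:103678601-103678630 on the minus strand lie in 5′UTRs. SNRNP70 at chr19:49107795-49107821 and TENT2 at chr5:79642832-79642843 are coding and on the plus strand. ELMO2 at chr20:46394504-46394532 on the minus strand is in the 5′UTR. ZNF700 at chr19:11947172-11947180 on the plus strand and EPG5 at chr18:45882432-45882461 on the minus strand are coding.

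Uniquely mapped junction reads numbered 20369466 to 36131054 per LMI070 library and 21975349 to 26716014 per DMSO library. LMI070 replicates 13 and 16 and DMSO replicates 11 and 12 were sequenced on lane 7, and the other 4 libraries on lane 8, so each lane held 2 libraries of each group. The genes that mark HEK293 cells were all detected, at a sum of 519 to 539 CPM (counts scaled to the library's unique junction reads) in LMI070 and 499 to 529 CPM in DMSO libraries. Fibroblast markers held 23.6 to 32.0 CPM in LMI070 and 20.5 to 25.3 CPM in DMSO libraries, and their part in the results was not tested. Blood, epithelial and hepatocyte markers each summed to under 1 CPM, with HBB and SERPINA1 at 0.

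The 1910 pairs left from 1761 donors and lay in 1485 genes, of which 1203 held a single pair. Protein-coding genes hosted 1848 of them. A pair held a median of 882 unique reads over all libraries, with quartiles at 350.5 and 2094.25. Both introns of 1891 pairs had GT-AG ends, 17 pairs had GC-AG ends, and 2 had others. Of these 2, VEZT used AT-AC introns and NR2C2AP GT-AT.

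The most frequent single distances were 4 and 5 nt, followed by 18 nt with 56 pairs. Acceptors lay 4 nt apart in 109 pairs, 5 nt apart in 87 and 6 nt apart in 39, and 75 pairs covered 7 to 11 nt together. A further 267 pairs lay 12 to 20 nt apart, 287 lay 21 to 30, 437 lay 31 to 50, 384 lay 51 to 75 and 225 lay 76 to 100. The distance was a multiple of 3 in 804 pairs, which is 42.1%. Among 907 pairs in coding sequence with both junctions in protein-coding transcripts, 588 distances (64.8%) kept the frame. Among 605 coding pairs of which a single junction was in a protein-coding transcript, 95 (15.7%) did. In 5′UTRs 84 of 288 (29.2%) were multiples of 3. The annotation defines these classes, although a junction also needed reads to enter.

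**Figure D1:**
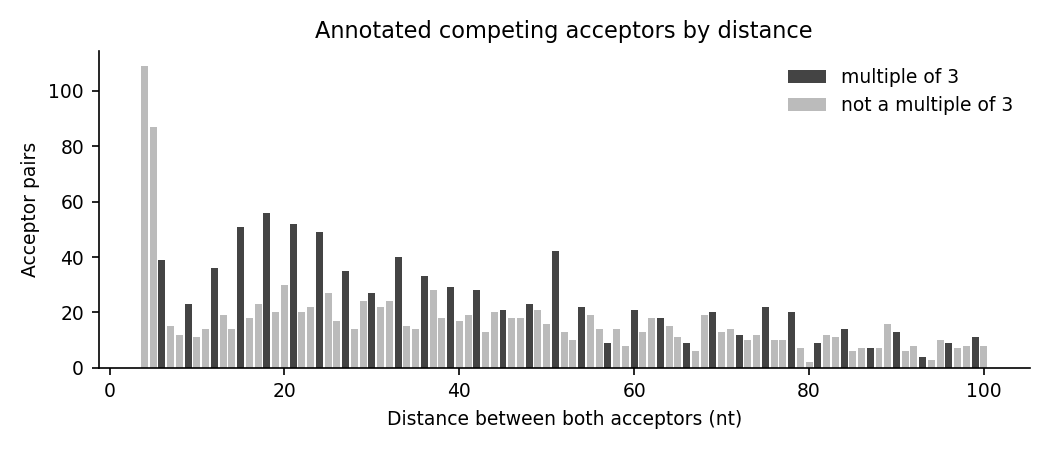
Number of acceptor pairs (vertical axis) at each distance between both acceptors in nt (horizontal axis), over all 8 libraries, with dark bars for multiples of 3. The tallest bars stand at 4 nt (109 pairs) and 5 nt (87 pairs), and from 12 to 36 nt each dark bar stands above both neighbours.

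The proximal acceptor took more reads in most pairs, in both groups. The distal acceptor was the major one in 781 of 1910 pairs (40.9%) in LMI070 and in 783 (41%) in DMSO cells. The median pooled distal share was 31.4% in LMI070 and 31.2% in DMSO cells, with quartiles at 5.53% and 84.8% in LMI070 and 5.64% and 84.7% in DMSO. Both acceptors were in substantial use in many pairs: the minor acceptor held at least 10% of reads in 889 pairs (46.5%) in LMI070 and in 857 (44.9%) in DMSO cells. It held under 1% in 156 pairs in LMI070 and 161 in DMSO cells.

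The distal share differed by distance and not in a single direction. At 4 to 6 nt its median was 10.6% in LMI070 and 10.7% in DMSO cells. It was 25.0% in LMI070 and 20.3% in DMSO at 7 to 11 nt. The distal acceptor dominated at 12 to 20 nt, with 67.4% in LMI070 and 68.0% in DMSO, and at 21 to 30 nt, with 58.0% in LMI070 and 56.4% in DMSO. Beyond that range the median was again below 50%. It was 24.7% in LMI070 and 23.4% in DMSO at 31 to 50 nt, 29.3% in LMI070 and 30.6% in DMSO at 51 to 75 nt, and 38.7% in LMI070 and 37.7% in DMSO at 76 to 100 nt.

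**Figure D2:**
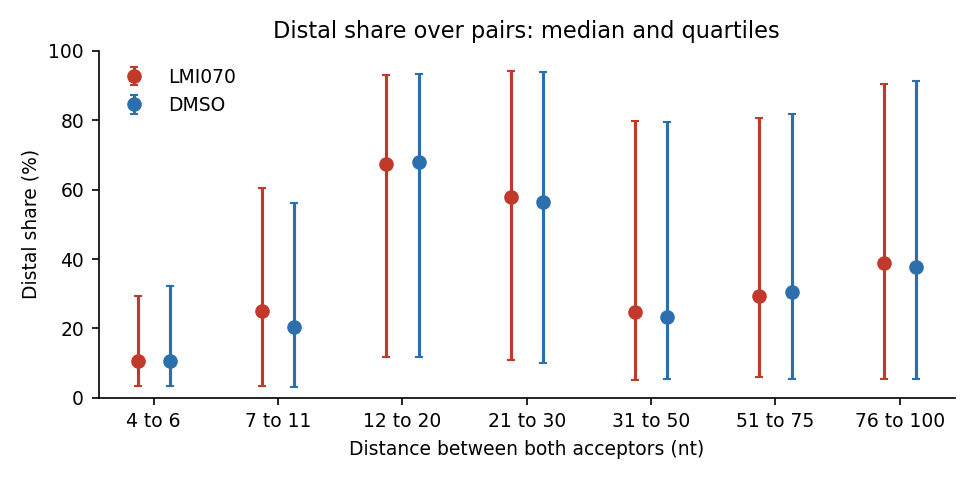
Distal share in percent (vertical axis) by distance between both acceptors in nt, as the median and quartiles over pairs, for LMI070 and DMSO libraries pooled by group. Both groups follow the same course, with medians near 10% at 4 to 6 nt and above 55% between 12 and 30 nt.

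Sequence and annotation went with the share. Where both junctions belonged to protein-coding transcripts (1161 pairs), the median distal share was 35.2% in LMI070 and 34.1% in DMSO cells. Where the proximal junction alone did (390 pairs) it was 4.31% in LMI070 and 4.53% in DMSO, and where the distal junction alone did (261 pairs) it was 94.1% in LMI070 and 94.6% in DMSO. The acceptor of the coding transcript was thus the major one in most of these pairs.

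The stretch between the acceptors was read from a transcript for 1900 pairs, and 1898 of the stretches ended in AG. The base before the distal AG was C in 1413 pairs (median distal share 30.8% in LMI070 and 31.2% in DMSO), T in 306 (48.4% in both groups), A in 156 (15.9% in LMI070 and 14.9% in DMSO) and G in 23 (4.36% in LMI070 and 4.78% in DMSO). The share of pyrimidines in the 20 bases before the distal AG could be computed for 1271 pairs. Under 50% pyrimidines (44 pairs) the median distal share was 9.62% in LMI070 and 8.74% in DMSO. From 50% to under 70% (542 pairs) it was 18.5% in LMI070 and 17.7% in DMSO, and from 70% (685 pairs) it was 48.1% in LMI070 and 46.0% in DMSO. Spearman's rho over the 1271 pairs was 0.242 in LMI070 and 0.248 in DMSO. Pairs of the same donor share reads, so this is a description.

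An additional AG between the acceptors went with a lower distal share at 12 to 30 nt. At 12 to 20 nt the median was 23.6% in LMI070 and 29.4% in DMSO over the 29 pairs with such an AG, and 71.2% in LMI070 and 69.8% in DMSO over the 238 without. At 21 to 30 nt it was 44.6% in LMI070 and 44.5% in DMSO with an AG (96 pairs), and 63.8% in LMI070 and 63.4% in DMSO without (190 pairs). At 31 to 50 nt it was 24.1% in LMI070 and 21.7% in DMSO with an AG (320 pairs), and 28.4% in LMI070 and 29.3% in DMSO without (117 pairs). The AG of the proximal acceptor itself, which lies upstream of the stretch, was not counted.

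**Figure D3:**
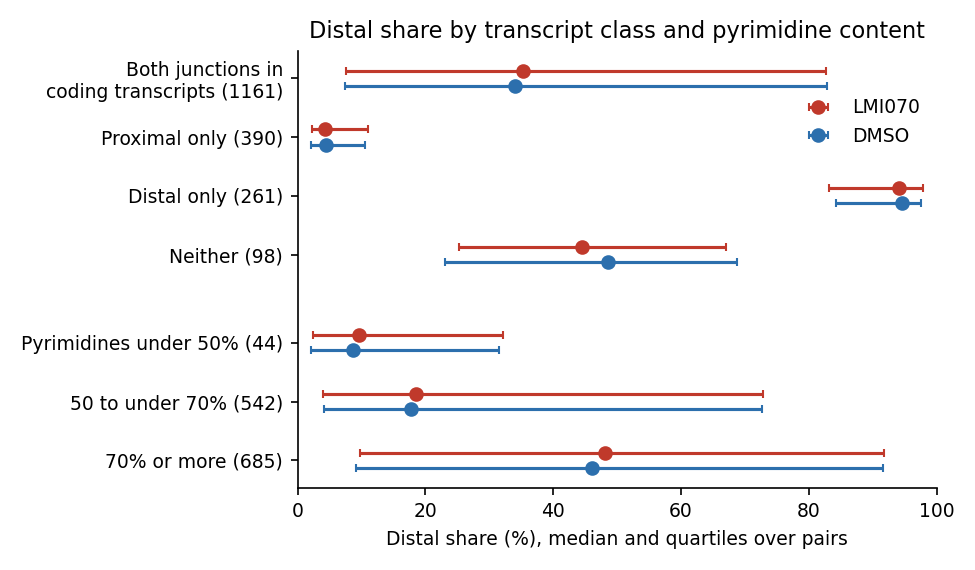
Distal share in percent (horizontal axis) as the median (point) and quartiles (bar) over pairs, by whether the junctions belong to protein-coding transcripts and by the share of pyrimidines before the distal AG, with LMI070 above DMSO in each row. Pairs whose distal junction alone is in a coding transcript sit near 94%, those with the proximal one alone near 4%.

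The share at the same acceptors also differed by donor. The same acceptors were reached from several donors in 37 cases, which makes 78 pairs. The distal share differed between donors by a median of 11 percentage points in LMI070 and 9.73 in DMSO cells. In DMSO cells it differed by under 5 points in 13 of the 37 and by over 20 in 9. In TARBP2, whose protein loads small RNAs onto Argonaute, the distal share of a 17 nt pair was 6.73% from one donor (1184 reads) and 41.7% from the other (54 reads) in LMI070 cells, against 10.2% and 50% in DMSO cells. PSMC3, a proteasome ATPase, had 0.576% and 40.5% at a 4 nt pair in LMI070 cells, against 0.530% and 28.6% in DMSO cells. Among the 9, the less used donors of TARBP2, PSMC3, RASSF8, ZNF23, ARMCX3 and LY6E held 54 to 89 reads, so these shares are imprecise. Those of GMPPA, DCAF11 and BABAM1 held 110 to 356 reads.

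The genes with the most pairs, 9 each, were EIF1AD, MLST8, a subunit of the mTOR complexes, and RIC8A, a chaperone of G protein alpha subunits. EIF1AD used 4 acceptors from 2 donors, and its distal shares ranged from 19.8% to 76.6% in LMI070 and from 12.6% to 82.9% in DMSO cells. In MLST8 and RIC8A most pairs set a major acceptor against a rare one. Their shares ranged from 2.74% to 98.3% in LMI070 and 2.31% to 98.9% in DMSO for MLST8, and from 1.02% to 99.3% in LMI070 and 0.880% to 99% in DMSO for RIC8A. The smallest adjusted p (edgeR's quasi-likelihood test) for the treatment was 0.987 in EIF1AD, 0.980 in MLST8 and 0.874 in RIC8A.

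The deepest balanced pairs show how closely libraries repeated each other. SERBP1, which encodes an mRNA-binding protein found on idle ribosomes, held 2 of them. At its 18 nt pair the distal share was 53.3%, 52.9%, 53.5% and 51.2% in LMI070 replicates 13 to 16, against 52.1%, 52.4%, 54.3% and 53.7% in DMSO replicates 9 to 12. At its 45 nt pair, which starts at another donor downstream, it was 75.4%, 75.5%, 74.4% and 73.9% in LMI070 and 75.2%, 73.3%, 72.5% and 73.1% in DMSO libraries. The groups overlapped at both pairs, and the means were 52.7% ± 1.06 in LMI070 and 53.1% ± 1.05 in DMSO at the 18 nt pair, and 74.8% ± 0.801 in LMI070 and 73.5% ± 1.14 in DMSO at the 45 nt pair (SD, n = 4 each).

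TOMM6, a small subunit of the mitochondrial import channel, averaged 75.4% ± 0.602 in LMI070 and 74.6% ± 1.16 in DMSO cells at 37 nt. BEX3 averaged 71.7% ± 1.71 in LMI070 and 71.7% ± 1.88 in DMSO cells at 47 nt, and MORF4L2, a subunit of a histone acetyltransferase complex, 54.9% ± 2.70 in LMI070 and 54.1% ± 2.50 in DMSO at 51 nt (SD, n = 4 each). The ranges of the groups overlapped in these 3 genes too. The 95% intervals of the change between groups were within 4 percentage points of 0 at all 5 of these deep pairs, the farthest bound being 3.75 at MORF4L2.

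The treatment was tested pair by pair, with edgeR's quasi-likelihood test of the distal against the proximal counts, a term for lane and Benjamini-Hochberg adjustment over all 14546 acceptor pairs of every distance that had at least 10 reads in every library. Of the 1910 competing pairs, 1729 met that minimum and 181 did not. None of the 1729 passed an adjusted p of 0.05 by edgeR, against a background of 0.254% (37 of 14546). At an unadjusted p under 0.05 there were 66 pairs, 36 higher and 30 lower in LMI070, which is 3.82% against 4.82% of all pairs tested. DESeq2 also called 0 competing pairs, against 16 of all 14546 pairs, where edgeR called 37. At an unadjusted p under 0.05 DESeq2 had 16 competing pairs, fewer than the 66 of edgeR. Its share over all pairs at that threshold is not given here. The 4 LMI070 libraries did not overlap the 4 DMSO libraries in 49 pairs (27 higher, 22 lower in LMI070), which is 2.83% against 3.27% of all pairs tested. The smallest adjusted p of a competing pair was 0.0803.

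The same fit made its 37 calls at larger distances. All were among the 12099 tested pairs over 100 nt apart (0.306%), 2 with a higher and 35 with a lower distal share in LMI070. None of 707 tested pairs at 3 nt was called. The shortest distance called was 175 nt, in SREK1, which encodes a splicing regulator rich in serine and arginine. Its distal share was 74.0% ± 3.83 in LMI070 and 89.4% ± 1.77 in DMSO cells (SD, n = 4 each, edgeR adjusted p = 2.83e-09). Whether the share of calls differs between distances was not tested. The called pairs lay in 34 genes, and 5 of these genes (ABCB8, ERGIC3, LARP7, PPP4C and RBBP8) also held 7 competing pairs. Of these, 6 could be tested, and their changes ran from -5.47 to 0.218 percentage points with adjusted p-values from 0.987 to 0.996 (edgeR).

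Changes in the distal share were small and went either way. It was higher in LMI070 in 858 tested pairs and lower in 871, with a median change of -0.0152 percentage points. The median size of a change was 0.968 points, against 1.27 over all pairs tested, and 90% of competing pairs changed by under 5.15 points. The median SD between libraries of a group was 2.14 points in LMI070 and 2.03 in DMSO. In the 601 pairs with at least 1600 reads the median size was 0.346 points and the largest 7.65, at a 37 nt pair of PRRC2A. A change of at least 10 points was seen in 17 pairs upward and 22 downward, none with over 885 reads. The 95% interval of the change lay within 10 points of 0 for 1291 of the 1729 pairs (74.7%) and within 5 points for 848 (49%). For the remaining 438 pairs a change of 10 points was not excluded at this depth.

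**Figure D4:**
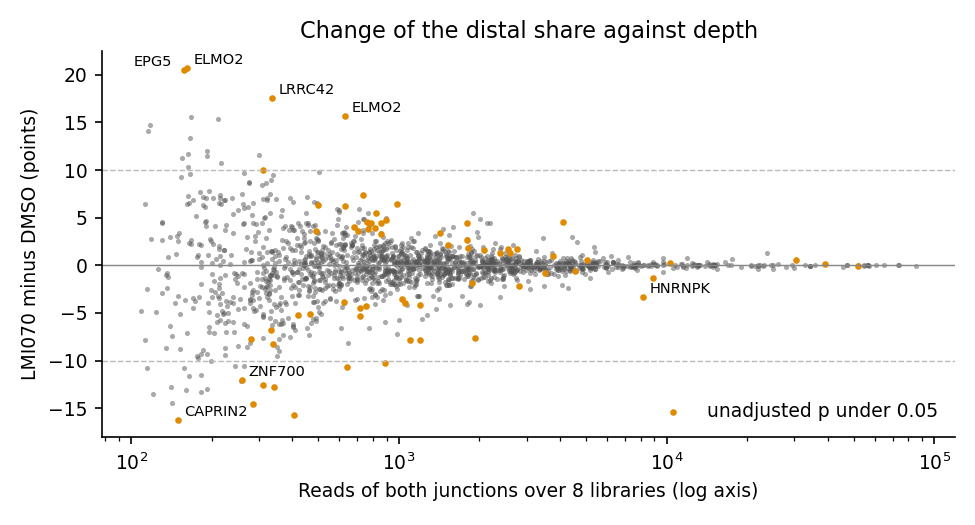
Change in the distal share in percentage points (LMI070 minus DMSO, vertical axis) against the unique reads of the pair over 8 libraries (log axis), a point per tested pair. Orange marks an unadjusted p under 0.05 and dashed lines a change of 10 points. Pairs with a change of at least 10 points hold at most 885 reads, and from 1600 reads on all lie within 7.65 points of 0.

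Summed over all 1910 pairs, the distal acceptor held 41.5%, 42.0%, 41.8% and 41.1% of reads in LMI070 replicates 13 to 16, against 41.9%, 41.9%, 41.7% and 41.3% in DMSO replicates 9 to 12. The ranges overlapped, and the means were 41.6% ± 0.395 in LMI070 and 41.7% ± 0.293 in DMSO (SD, n = 4 each). A junction that belongs to several pairs is counted in each of them. With a single pair per donor the means were 38.9% ± 0.239 in LMI070 and 38.8% ± 0.208 in DMSO (SD, n = 4 each).

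Genes whose proteins select splice sites were listed apart. Of 34 listed genes of 3′ splice site recognition, 6 held 8 pairs (CHERP, DDX42, DHX38, SF1, SUGP1 and U2AF1L4). None of the 7 that could be tested had an unadjusted p under 0.05, against 4.82% of all pairs tested. The median change was 0.42 points. U2AF1L4, a relative of U2AF1, had distal shares of 31%, 65.2%, 27.8% and 47.1% in LMI070 libraries, against 31.6%, 42.9%, 36% and 33.3% in DMSO libraries at its 25 nt pair. LMI070 replicate 14 stood highest and the groups overlapped (adjusted p = 0.993, edgeR). At the branch point protein SF1, a 5 nt pair averaged 7.93% ± 1.82 in LMI070 and 8.85% ± 2.19 in DMSO cells (SD, n = 4 each).

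Of 18 listed genes of U1 snRNP and 5′ splice site recognition, 3 held a pair each. None of these pairs had an unadjusted p under 0.05, against 4.82% of all pairs tested. SNRNP70 encodes the U1-70K protein of the particle. Its 27 nt pair had 33.5%, 31.5%, 31.2% and 34.4% in LMI070 libraries, against 28.5%, 29.5%, 29.4% and 33.2% in DMSO libraries. DMSO replicate 12 lay within the LMI070 range, and the change of 2.46 points (95% interval -0.958 to 6.25) had an adjusted p of 0.987 (edgeR). LUC7L3 and TIAL1 changed by 1.63 and 4.12 points, with overlapping groups.

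Of 44 listed genes of SR proteins, hnRNPs and their regulators, 11 held 12 pairs, all testable. An unadjusted p under 0.05 was reached by 1 pair upward (SRSF2) and 1 downward (HNRNPK), none past the adjusted threshold, against 4.82% of all pairs tested. The median change was 0.41 points. HNRNPK, a protein that binds C-rich RNA, had 20.3%, 26.5%, 27.1% and 24.8% in LMI070 libraries, against 29%, 26.9%, 28.3% and 27.7% in DMSO libraries at its 60 nt coding pair. LMI070 replicate 13 was the lowest, and replicate 15 lay within the DMSO range (adjusted p = 0.777, edgeR). The change was -3.31 points, with -5.46 on lane 7, -1.17 on lane 8 and -1.87 without LMI070 replicate 13. Its acceptors also held 1476 proximal and 1475 distal reads that mapped to several places and could not be assigned. SRSF2, a serine and arginine rich splicing factor, averaged 7.42% ± 6.38 in LMI070 and 2.95% ± 1.20 in DMSO cells at 21 nt (SD, n = 4 each). LMI070 replicate 16 held 16.7% there and the other 3 LMI070 libraries 2.93% to 6.64%. RBM39, a splicing factor bound by sulfonamide degraders, stayed close to an even choice at its 18 nt pair, with 52.1% ± 1.77 in LMI070 and 51.7% ± 1.26 in DMSO (SD, n = 4 each).

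Genes reported in other work to respond to LMI070 or to the related drug risdiplam held 5 pairs, in ERGIC3, HTT and TENT2. None of the 4 tested pairs had an unadjusted p under 0.05, against 4.82% of all pairs tested. In HTT, the Huntington disease gene, a 5 nt pair in the coding sequence had 5.15%, 1.85%, 2.44% and 3.66% in LMI070 libraries, against 1.43%, 3.33%, 5.68% and 5.97% in DMSO libraries. The groups overlapped, and 22 distal reads in all 8 libraries stood behind these shares. In TENT2, a poly(A) polymerase, the 12 nt pair had 55.2%, 57.5%, 56.5% and 46.2% in LMI070 libraries, against 46.0%, 55.6%, 43.4% and 50.4% in DMSO libraries. LMI070 replicates 13 and 16 lay within the DMSO range. The change of 4.95 points had a 95% interval of -3.25 to 12.7 and an adjusted p of 0.987 (edgeR). It was 7.51 points without LMI070 replicate 16 and 3.15 without DMSO replicate 11.

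Genes whose acceptor choice is known to change with SF3B1 mutation, the branch point factor mutated in some leukaemias, held 17 pairs in 8 genes. Of 16 tested, none had an unadjusted p under 0.05, against 4.82% of all pairs tested. Lists as short as these can hold none at that share. Changes ran from -3.67 points to 1.38, both in ANKHD1. Ribosomal protein genes held 30 pairs, of which 27 were tested, and most set a dominant acceptor against one with under 1% of reads. RPS13 was higher in LMI070 at an unadjusted p of 0.00959 (0.415% ± 0.0613 in LMI070, 0.254% ± 0.0381 in DMSO, SD, n = 4 each, edgeR, adjusted p = 0.859).

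LMI070 is known for acting on exons that end in GA. The exon that follows the competing acceptors ended in GA in 26 pairs, by the annotation, and 25 of these were tested. Their median change was 0.43 points, and none had an adjusted p under 0.05. An unadjusted p under 0.05 was reached by 3 of the 25, against 58 of 1557 tested pairs whose following exon ended otherwise and 4.82% of all pairs tested, and whether these shares differ was not tested. LRRC42, picked after its values were seen, is one of them, with an exon ending in AGA. Its 74 nt pair in the 5′UTR had 47.3%, 39.1%, 42.3% and 28.1% in LMI070 libraries, against 18.4%, 20.8%, 25% and 22.5% in DMSO libraries. All LMI070 libraries were above all DMSO ones, and the adjusted p was 0.411 (edgeR, change 17.5 points, 95% interval 6.13 to 31.6).

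The pairs that came nearest to the threshold were named after their values were seen. ELMO2 encodes a partner of DOCK proteins in the activation of Rac during cell engulfment and migration. From the donor at position 46398696 of chromosome 20, its 29 nt pair had distal shares of 45.1%, 46.3%, 49.3% and 32.8% in LMI070 replicates 13 to 16, against 29%, 25.7%, 22.2% and 33.9% in DMSO replicates 9 to 12. LMI070 replicate 16 lay below DMSO replicate 12, and the other 3 libraries of each group were apart. The means were 43.4% ± 7.28 in LMI070 and 27.7% ± 4.96 in DMSO (SD, n = 4 each), the change was 15.7 points (95% interval 7.48 to 26.3) and the adjusted p was 0.0803 (edgeR). It was 10.9 points on lane 7 and 20.5 points on lane 8. With a library left out, the adjusted p (edgeR) was 0.0175 without LMI070 replicate 16 and 0.0218 without DMSO replicate 12, the libraries that overlapped. It was 0.00556 without both, a choice made after seeing the data. Leaving out the libraries that overlapped widens the difference between the groups, so these values are a description. The adjusted p was 0.219 to 0.623 without any of the other 6 libraries in turn (edgeR), and 0.9999 with DESeq2 on all 8.

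The same ELMO2 acceptors were also reached from a donor farther upstream, at 46406547. Their distal share from there was 42.1%, 77.3%, 60% and 67.9% in LMI070 libraries, against 47.1%, 44.8%, 47.6% and 25% in DMSO libraries, from 10 to 29 reads a library. LMI070 replicate 13 lay below 3 DMSO libraries. The mean was again higher in LMI070, at 61.8% ± 14.9, than in DMSO, at 41.1% ± 10.8 (SD, n = 4 each, edgeR adjusted p = 0.868). These libraries are the same as before, so the second donor adds other reads of the same cells and no other samples.

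ZNF700, a zinc finger protein gene, went the other way at its 9 nt pair. Its distal share was 85.7%, 80%, 86.7% and 92.6% in LMI070 libraries, against 100%, 100%, 97.2% and 95.8% in DMSO libraries. All LMI070 libraries were lower. DMSO replicates 9 and 10 held 0 proximal reads of 33 and 38, which allows a proximal share of up to 9.09% and 7.89%. The means were 86.2% ± 5.16 in LMI070 and 98.3% ± 2.08 in DMSO (SD, n = 4 each, edgeR adjusted p = 0.0876), from 18 proximal reads in LMI070 and 2 in DMSO libraries. The change was -7.37 points on lane 7 and -16.7 on lane 8. The adjusted p was 0.0421 without LMI070 replicate 16, 0.0804 to 0.571 without any of the other 7 libraries in turn, and 0.9999 with DESeq2 on all 8.

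EPG5, an autophagy tether, had 28.6%, 23.5%, 27.3% and 17.9% in LMI070 libraries, against 9.52%, 5.56%, 0% and 0% in DMSO libraries at a 56 nt pair. All LMI070 libraries were higher, from 20 distal reads in LMI070 and 3 in DMSO. The counts of 0 were out of 18 and 16 reads, which allows up to 16.7% and 18.8%. The adjusted p was 0.193 (edgeR). In the DNA polymerase gene POLI, a 69 nt pair had 14.8%, 12.5%, 14.8% and 12.5% in LMI070 libraries, against 2.86%, 6.52%, 2.63% and 2.56% in DMSO libraries. The groups were apart, and the adjusted p was 0.537 (edgeR).

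In CAPRIN2, an RNA-binding protein gene, the 63 nt pair had the largest fall, with 13%, 18.8%, 16.7% and 20% in LMI070 libraries, against 21.4%, 47.8%, 36.8% and 27.3% in DMSO libraries. All LMI070 libraries were below all DMSO ones, and the adjusted p was 0.897 (edgeR). The pair held 149 reads, with 14 distal reads in LMI070 and 24 in DMSO libraries. It was picked for the size of its change after the values were seen. EWSR1, an RNA-binding protein gene rearranged in Ewing sarcoma, was much deeper, with 8874 reads at a 39 nt pair. It had 95.3%, 96.0%, 96.5% and 94.6% in LMI070 libraries, against 97.0%, 96.1%, 97.4% and 97.4% in DMSO libraries. Only LMI070 replicate 15 reached the DMSO range. The change was -1.37 points (95% interval -2.56 to -0.407), with an adjusted p of 0.537 (edgeR). It was -2.42 points on lane 7 and -0.322 on lane 8.

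**Figure D5:**
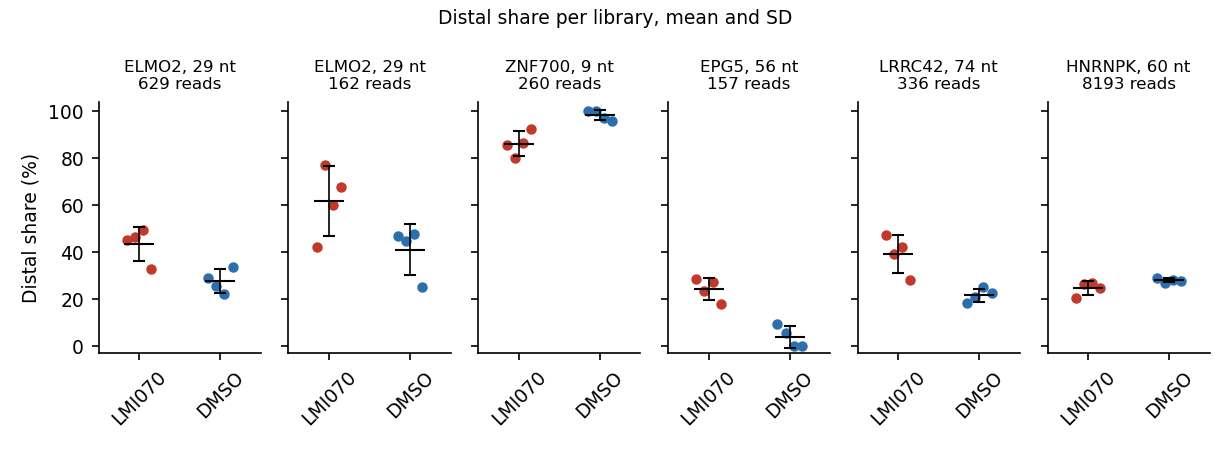
Distal share in percent (vertical axis) in each LMI070 and DMSO library, a point per library, for ELMO2 (from both donors), ZNF700, EPG5, LRRC42 and HNRNPK, with lines for the mean and SD. The groups are apart in ZNF700, EPG5 and LRRC42 and overlap in ELMO2 and HNRNPK.

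At the limits of the rule, PTMA (9 nt) and RPLP0 (31 nt) entered with 20 reads at their minor acceptor, while ACTG1 (27 nt) and RPS3A (8 nt) stayed out with 19. At 4 nt the deepest pairs were RPS15, with a distal share of 2.02% in LMI070 and 2.18% in DMSO, and COX4I1, with 0.718% in LMI070 and 0.524% in DMSO. Just outside, at 3 nt, PTMA had 89.9% in both groups and HNRNPC 3.15% in LMI070 and 3.18% in DMSO. At 100 nt GSTP1 had 99.9% in both groups and ODC1 0.354% in LMI070 and 0.319% in DMSO, and at 101 nt, outside, KHDC4 had 18% in LMI070 and 17.9% in DMSO and MAP4 18.8% in LMI070 and 24.0% in DMSO.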

How the data were processed

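The authors deposited a table of splice junctions for each of the 8 libraries, aligned with STAR 2.6.0c to GRCh38 per the submitters' processing notes. The deposited values are counts of reads crossing each junction, uniquely mapped and multiply mapped, with a mark for annotated junctions. The alignment settings and the annotation release are not given in the sources used here. Unique counts were used. Replicates of a group differed by more than counting noise, with a chi-square per degree of freedom over junctions of 1.16 to 3.29, lowest between LMI070 replicates 14 and 15 (1.16) and DMSO replicates 9 and 10 (1.18), which share a lane. All were kept as separate libraries. Counts were joined by donor, and positions, frames and sequences came from GENCODE 29. The distal and proximal counts of each pair were fitted with edgeR 4.0.16 in R 4.3.3, with a coefficient per library and terms for lane and treatment, over all 14546 pairs with at least 10 reads in every library. A change is the difference of the mean shares, and its 95% interval applies the interval of the fitted odds to the DMSO share. DESeq2 1.42.0, other read minimums, multiply mapped reads, single lanes and left-out libraries were alternatives. The script was tested on simulated data of 14546 pairs. There it called 25 of 100 pairs whose log2 odds differed by 1 between the groups. Where the log2 odds differed by 2, it called 80 of 100. These changed pairs were of any distance, and each had over 10% of its reads at the minor acceptor. The simulated spread between libraries was set alike for all pairs. How many changes among the competing pairs would be called was not measured. Among the pairs left unchanged in the same simulation, 2 were called falsely. The 95% intervals include the spread between libraries, while limits from counts of 0 cover counting error only.

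Named pairs were those past the test (none), the smallest p of each gene list, the 6 deepest pairs with a balanced share, the 3 genes with most pairs and the pairs at the limits of the rule. Other pairs were named after their values were seen. Some pairs that this rule names are not reported here. Members and gene lists were chosen with earlier results of these data known.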

Additional observations from a re-analysis of the deposited data

Results flagged for a closer look

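Among 46 groups of 4 libraries checked for a library far from the other 3, 2 stood out, and such a check picks out about 1 group in 20 when nothing is unusual. At the 69 nt pair of POLI the distal share was 6.52% in DMSO replicate 10, against 2.56% to 2.86% in the other 3 DMSO libraries, which is 3 distal reads against 1 in each of the others. At the ELMO2 pair reached from the upstream donor at 46406547, DMSO replicate 12 had 25%, against 44.8% to 47.6% in the other 3 DMSO libraries, from 4 distal reads.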

How the results depend on the processing

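No paired analysis was possible because the groups share no replicate number (13 to 16 in LMI070, 9 to 12 in DMSO). The count of 0 competing pairs past the edgeR test was also 0 without a lane term, with DESeq2, without a minimum per library, with at least 30 reads in every library, with multiply mapped reads added, with the 4 to 100 nt pairs alone, with a single pair per donor, on either lane alone and when a change of 10 points was required as well. It ranged from 0 to 2 when libraries were left out in turn, reaching 2 without LMI070 replicate 16 and 1 without DMSO replicate 12, and was 2 without both, a choice made after seeing the data. Over all distances the main count of 37 was 16 with DESeq2, 13 on lane 7, 21 on lane 8 and 21 with a change of at least 10 points. The summed distal share differed by -0.05 points between LMI070 and DMSO and by 0.71 points when the median over pairs was used, and ranged from -0.185 to 0.117 with a library left out. U2AF1L4 reversed to -0.652 points without LMI070 replicate 14. SERBP1 (18 nt) changed by -1.74 points on lane 7 and 0.920 on lane 8. The cause of these shifts was not tested. Tested for lane in place of treatment, 0 of 14546 pairs were called by edgeR. An unadjusted p under 0.05 was reached by 103 of the 1729 tested competing pairs, against 66 for treatment. The lane share over all pairs is not given here, so whether lane goes more with competing pairs than with others was not tested. Depth limits pairs of few reads.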

Other observations

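Leaving out pairs with equal reads in either group (6 pairs tied in LMI070 and 8 in DMSO), the acceptor with more reads differed between the groups in 54 of the 1910 pairs. In 27 of them it was the distal one in LMI070 and the proximal one in DMSO, and in 27 the reverse. Of these pairs 26 could be tested. The libraries of both groups did not overlap in 2 of the 26, against 3.27% of all pairs tested. The 26 were picked by the group shares themselves, so this count is a description. The smallest unadjusted p was 0.00492 by edgeR, at the 5 nt pair of GMPPA. GMPPA, a regulator of GDP-mannose synthesis, had 37.5%, 44.4%, 45.9% and 51.2% in LMI070 libraries, against 67.3%, 68.5%, 43.8% and 62.5% in DMSO libraries. DMSO replicate 11 lay within the LMI070 range, and the adjusted p was 0.657 (edgeR). These shares are from a donor with 407 reads. From the other donor of the same acceptors, with 356 reads, the pooled distal share was 27.8% in LMI070 and 29.4% in DMSO.

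At 4 nt the stretch between the acceptors was acAG in 25 pairs, with a median distal share of 17.7% in LMI070 and 12.6% in DMSO cells. It was gcAG in 20 pairs, with 4.10% in LMI070 and 5.06% in DMSO, and ccAG in 13 pairs, with 16.2% in LMI070 and 15.4% in DMSO. These medians are over few pairs and were not tested against each other.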
